A study of Mus musculus with 2 samples.

Results

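The 35 genes described here encode the protein and heme parts of haemoglobin and the proteins that build the red cell membrane, together with the transcription factors and the receptor that drive their expression. They were chosen by symbol as 7 globins, 6 erythroid transcription factors with the erythropoietin receptor, 9 genes of heme synthesis and mitochondrial transport, 9 membrane genes and 3 haemoglobin partners or red cell enzymes. Of the 35 genes 34 had a row in both gene tables, out of 43346 annotated genes, and Ahsp was not analysed here. The RNA came from whole forebrain of B6NCrl mouse embryos at embryonic day 10.5, both sexes pooled, with no treatment and no other tissue or stage. Replicate 1 was made from 69 embryos and replicate 2 from 51, each pool giving 1 library from 10 ng of total RNA. The sources used here do not say whether blood was removed from the tissue. The gene tables held 43021202 and 39215064 expected counts (reads assigned to a gene by estimation), and spike-in RNA took 3.45% and 3.07% of them.

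At mid-gestation the circulation of the mouse embryo carries primitive erythroid cells, which arise in the yolk sac, enter the blood while still nucleated and go on making haemoglobin there. Each haemoglobin molecule joins alpha-like and beta-like globin chains around heme, an iron porphyrin made by a chain of enzymes that starts and ends in the mitochondrion. Primitive cells make embryonic globins: zeta, encoded by Hba-x, and epsilon-y and beta-h1, encoded by Hbb-y and Hbb-bh1. Definitive cells use the adult forms. An adult globin transcript is not taken here as a mark of definitive cells, and which cells made those in these libraries was not tested. The factors Gata1, Tal1 and Klf1 act at globin, heme and membrane genes alike. A skeleton of spectrin and ankyrin, tied to the anion exchanger in the membrane, gives the red cell its shape.

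The alpha-like genes lie on the plus strand of chromosome 11 and the beta-like genes on the minus strand of chromosome 7 (GENCODE models on the assembly GRCm38, also called mm10). Hba-x spans chr11:32276400-32278116, Hba-a1 chr11:32283511-32284465 and Hba-a2 chr11:32296489-32297298. Hbb-y spans chr7:103851749-103853216, Hbb-bh1 chr7:103841637-103843164, Hbb-bs chr7:103826534-103828096 and Hbb-bt chr7:103812524-103813996. Each of the 7 genes has 3 exons, with a coding sequence of 426 bases in the alpha-like and 441 in the beta-like genes.

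The adult genes of each cluster are near-identical copies, and the stretches below are shown because each holds the only coding base by which the copies differ. The capital marks that base, which is position 417 of the coding sequence in the beta-like pair (C417T, from Hbb-bs to Hbb-bt) and position 381 in the alpha-like pair (C381T, from Hba-a1 to Hba-a2), counted from 1 at the A of the start codon. The stretches were cut from the GENCODE transcripts, lie within the last exon and occupy chr7:103826668-103826728 and chr7:103812659-103812719 on the minus strand and chr11:32284313-32284373 and chr11:32297130-32297190 on the plus strand.
Hbb-bs: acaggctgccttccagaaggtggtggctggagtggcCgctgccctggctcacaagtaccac
Hbb-bt: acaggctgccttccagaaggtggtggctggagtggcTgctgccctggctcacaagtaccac
Hba-a1: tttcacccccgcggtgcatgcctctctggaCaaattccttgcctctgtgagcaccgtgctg
Hba-a2: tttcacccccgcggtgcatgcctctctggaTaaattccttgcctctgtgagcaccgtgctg
The embryonic genes are far more distinct. The coding sequences of Hbb-y and Hbb-bh1 differed at 104 of 441 bases (76.4% identity), and those of Hba-x and Hba-a1 at 163 of 426 (61.7%). Reads of the embryonic globins can therefore be told from the rest, and the deposited posterior SD of the count, the quantifier's own measure of how uncertain the assignment of reads is, was 0 for Hbb-y, Hbb-bh1 and Hba-x in both libraries. It was 215 and 173 counts in replicates 1 and 2 for Hba-a1 and the same for Hba-a2, and 31.4 and 27.1 for Hbb-bt and the same for Hbb-bs, so a read lost by one copy was gained by the other.

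Globin transcripts were among the most abundant in the forebrain libraries. Levels are given in TPM, a share of all transcripts after division by length, so that genes can be compared with each other. Hbb-y stood at 9046 TPM in replicate 1 and 6644 in replicate 2, the highest mean of all annotated genes. Hbb-bh1, the other embryonic beta-like gene, stood at 4594 and 3498 TPM. Hba-x, the embryonic alpha-like gene, stood at 3630 and 2645 TPM. The adult alpha genes were of similar abundance, with Hba-a2 at 4812 and 3397 TPM and Hba-a1 at 2586 and 1852. The adult beta genes were much lower, at 286 and 179 TPM for Hbb-bt and 36.25 and 28.5 for Hbb-bs. By mean TPM the order was Hbb-y, Hba-a2, Hbb-bh1, Hba-x, Hba-a1, Hbb-bt and Hbb-bs, but Hba-a2 and Hbb-bh1 changed places in replicate 2. The ranges of Hba-a2, Hbb-bh1 and Hba-x over the libraries overlapped. Within a library, however, Hba-x stood at 0.790 and 0.756 of Hbb-bh1 and at 0.754 and 0.779 of Hba-a2, lower in both pools, whereas Hba-a2 stood at 1.05 and 0.971 of Hbb-bh1 and had no fixed order with it. The other neighbours did not overlap, and the lower library of Hbb-y lay above the higher library of every other globin.

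Within the beta-like genes the embryonic forms took nearly everything. Hbb-y and Hbb-bh1 together made up 97.7% of beta-like TPM in replicate 1 and 98.0% in replicate 2 (97.8% ± 0.215, SD, n = 2). Hbb-y alone made up 64.8% and 64.2%, and Hbb-bh1 32.9% and 33.8%. The share of the adult beta genes was 2.31% and 2.00%.

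The alpha-like genes divided differently. Hba-x made up 32.9% of alpha-like TPM in replicate 1 and 33.5% in replicate 2 (33.2% ± 0.419), and the adult copies Hba-a1 and Hba-a2 took the remaining 67.1% and 66.5%. Hence the sum of the adult alpha genes, 7398 and 5249 TPM, exceeded the sum of the adult beta genes, 322 and 207 TPM, by 23.0 and 25.3 times. The alpha-like sum stood at 0.790 and 0.763 of the beta-like sum (0.776 ± 0.0192). All 7 globins together held 2.50% and 1.82% of the TPM of the libraries (2.16% ± 0.477). The main proportions among globins moved far less between the pools than the total did: the total differed 1.37-fold in TPM, the alpha to beta ratio 1.04-fold and the ratio of Hbb-y to Hbb-bh1, 1.97 and 1.90, also 1.04-fold.

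**Figure D1:**
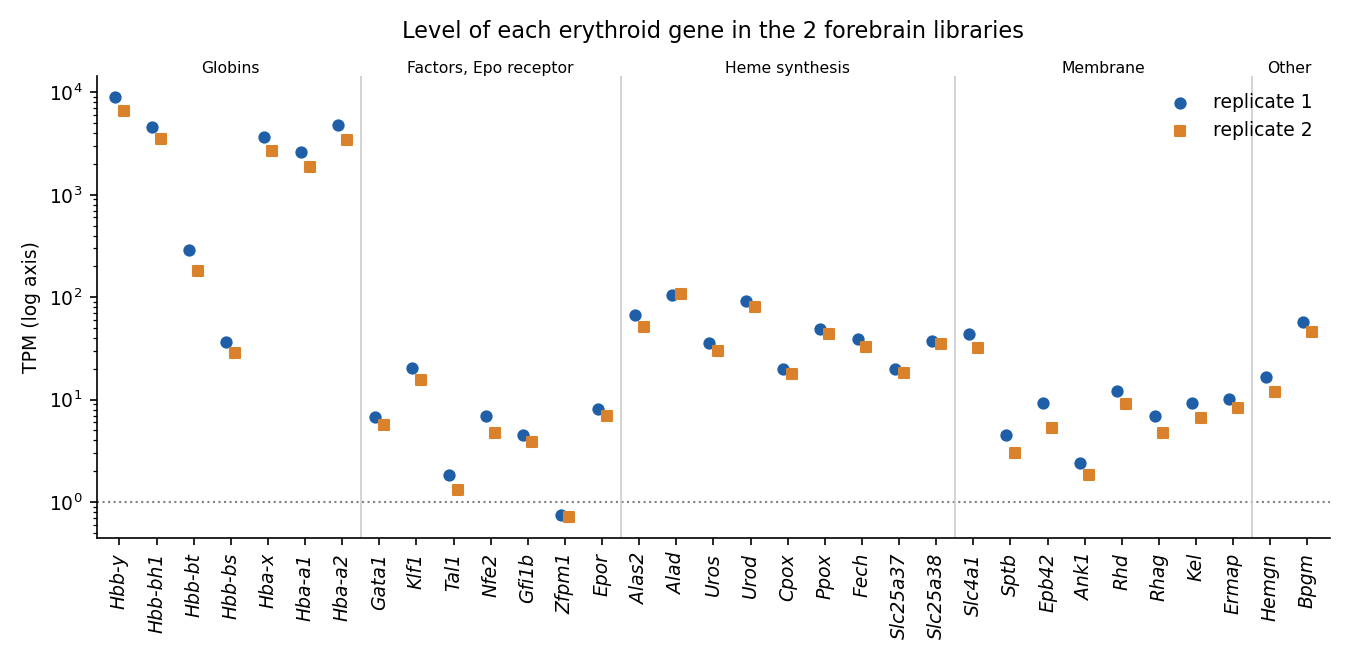
TPM of each gene with a count in replicate 1 (circles) and replicate 2 (squares) on a log axis, grouped by role; the dotted line marks 1 TPM. The globins other than Hbb-bt and Hbb-bs sit at 1852 TPM or higher in both libraries, heme genes between 17.6 and 108 TPM, and factors and membrane genes mostly lower.

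The position of a gene in its cluster and its level were set side by side. In the beta-like cluster the start of Hbb-bh1 lies 10.1 kb from that of Hbb-y, the start of Hbb-bs 25.1 kb and the start of Hbb-bt 39.2 kb, so the most distant gene was the more abundant adult copy, 7.88 and 6.26 times Hbb-bs over all transcript models. In the alpha-like cluster the start of Hba-a1 lies 7.11 kb from that of Hba-x and the start of Hba-a2 20.1 kb, and the far copy was again the higher, 1.86 and 1.83 times Hba-a1. Other globin genes of the clusters were low or silent. The theta globin copy Hbq1b, between Hba-a1 and Hba-a2, reached 8.54 and 5.18 TPM, and its partner copy Hbq1a 0.17 and 0.13 TPM. Hbb-bh2 had 4 counts in each library, Hbb-bh3 had none, and the pseudogene Hbb-bh0 rested on 5 and 3 counts. Globins of other tissues were low as well: cytoglobin (Cygb) reached 2.12 and 2.48 TPM, neuroglobin (Ngb) 0.24 and 0.26, and myoglobin (Mb) 0.13 and 0.21.

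**Figure D2:**
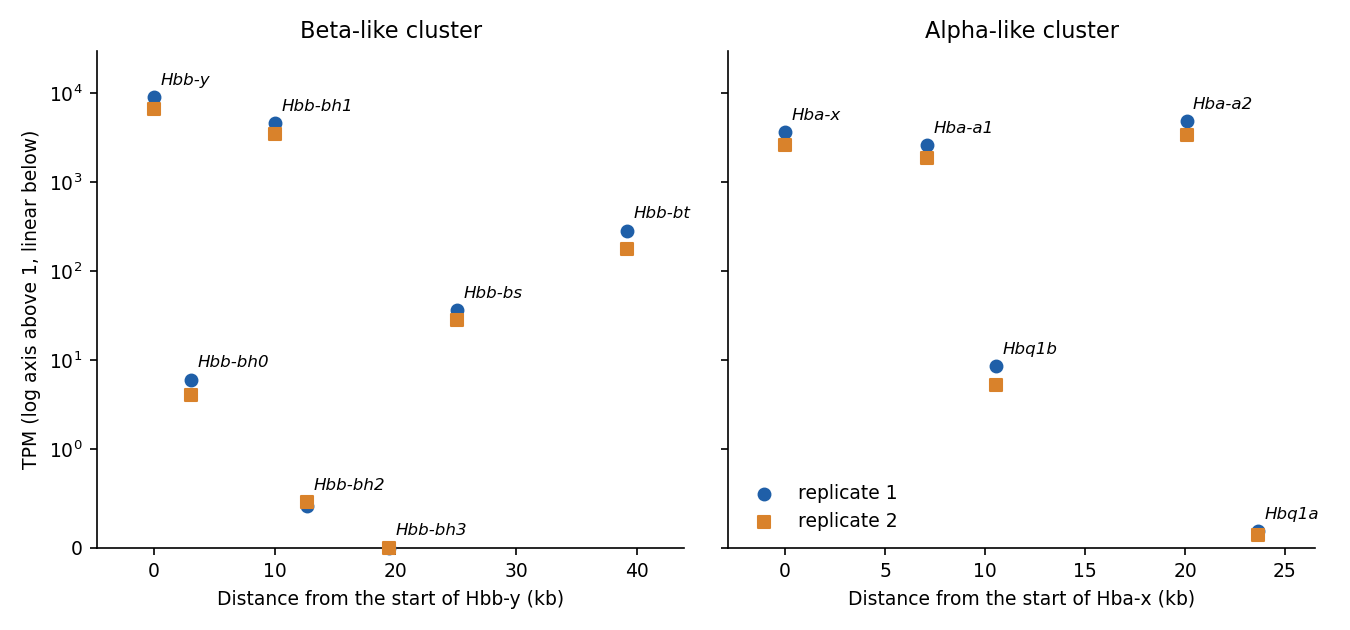
TPM of each globin gene (log axis above 1, linear below) against the distance of its start from that of Hbb-y or Hba-x, in replicate 1 (circles) and replicate 2 (squares). The embryonic beta-like genes at 0 and 10.1 kb are the highest of their cluster, whereas in the alpha-like cluster the gene at 20.1 kb is the highest.

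The transcript tables show how the reads of the copies were divided. Of Hba-a1 TPM, 79.9% in replicate 1 and 78.1% in replicate 2 were assigned to a model of 494 bases that GENCODE M21 classes as a retained intron (its class in M4, the release of the deposited tables, was not checked), and 20.1% and 21.9% to the protein-coding model. For Hba-a2 the protein-coding model took 99.99% and 100%, and the matching retained-intron model, which differs from that of Hba-a1 at 1 of 494 bases, had 2.69 and 0 counts. The coding models of the pair are not drawn alike, with 196 bases before the start codon in that of Hba-a1 and 35 in that of Hba-a2. Counting only the coding models, Hba-a1 stood at 520 and 405 TPM beside 4812 and 3397 for Hba-a2, a ratio of 9.26 and 8.38. The ratio of the copies thus depends on the models to which the reads were assigned, whereas the summed count of the pair does not depend on which copy a shared read was given to. The retained-intron model of Hbb-bs took 70.7% and 82.1% of that gene's TPM, and with coding models alone Hbb-bt was 26.9 and 35.04 times Hbb-bs. Of the 33 genes with a count, 18 had 2 or more transcripts above 5% of the gene in a library, and in 17 of these the leading transcript was the same in both. Epb42 was the exception: a model of 366 bases led with 29.2% in replicate 1 on 20.1 counts and had 0 in replicate 2, where a model of 4115 bases led with 42.0%.

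Of the 34 genes with a row, 32 reached 1 TPM in both libraries (94.1%, against 32.4% of all annotated genes). The remaining genes were Zfpm1, at 0.75 and 0.71 TPM, and Tspo2, with no count in either library. A floor of 3 counts, set here for genes with none, equals 0.111 and 0.123 TPM for Tspo2. The deposited upper bounds of its TPM were higher, 0.777 and 0.872.

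The transcription factors stood far below the globins. Klf1, which binds CACCC sequences in globin promoters, was the highest at 20.6 and 15.6 TPM. Nfe2, the erythroid subunit of a factor bound at the globin locus control region, stood at 6.99 and 4.71 TPM, and Gata1 at 6.76 and 5.60. Gfi1b, a repressor needed for erythroid and megakaryocytic maturation, stood at 4.56 and 3.87 TPM, and Tal1, the partner of Gata1 in a complex with Lmo2 and Ldb1, at 1.83 and 1.32. Zfpm1, the cofactor called FOG1, was the lowest. The erythropoietin receptor Epor reached 8.06 and 7.0 TPM. Each of the 7 was higher in replicate 1. The ranges of Nfe2 and Gata1 over the libraries overlapped, and the other neighbours in the order Klf1, Epor, Gata1, Nfe2, Gfi1b, Tal1 and Zfpm1 did not, although Epor and Nfe2 missed each other narrowly.

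Heme synthesis genes formed a middle tier. Alad, the enzyme of the second step, led at 106 and 108 TPM, followed by Urod at 91.2 and 79.75. Alas2, the erythroid form of the rate-limiting first enzyme, stood at 66.8 and 51.4 TPM. The late enzymes Ppox, Fech, which inserts the iron, and Cpox stood at 49.0 and 44.0, 39.2 and 32.9, and 20.1 and 17.6 TPM. Uros, which closes the porphyrin ring, stood at 35.4 and 30 TPM. The mitochondrial carriers were at similar levels, Slc25a38, the glycine carrier, at 37.5 and 34.99 TPM and Slc25a37 (mitoferrin), the iron importer of developing red cells, at 20.0 and 18.4. All 9 were detected in both pools, and 8 of the 9 were higher in replicate 1, with Alad as the exception. The housekeeping first enzyme Alas1, from the wider heme list, stood at 41.55 and 40.2 TPM, below Alas2 in each library.

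Among membrane genes the anion exchanger Slc4a1 was the highest, at 44.1 and 31.9 TPM. The Rhesus proteins Rhd and Rhag stood at 12.3 and 9.06 and at 6.94 and 4.76 TPM, and the blood group genes Ermap and Kel at 10.25 and 8.26 and at 9.26 and 6.60. The skeleton genes were lower: erythroid beta spectrin (Sptb) stood at 4.53 and 3.02 TPM and erythroid ankyrin (Ank1) at 2.40 and 1.83. Epb42, which encodes a protein that joins the anion exchanger to the skeleton, stood at 9.32 and 5.30 TPM, values that include the 366-base model. Hemgn, a nuclear protein of erythroid cells, stood at 16.7 and 11.8 TPM, and Bpgm, the mutase that makes the bisphosphoglycerate which lowers the oxygen affinity of haemoglobin, at 57.0 and 45.8.

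The pools were then compared gene by gene. The ratio was taken as the expected count in replicate 1 over that in replicate 2 after scaling for library size by the trimmed mean of M-values (TMM), which centred the median of 17174 genes with 10 or more counts on average at 1.00-fold. Each pool is 1 library, so there is no replicate error and no test of a difference between pools. Each ratio carries a 95% exact binomial interval, computed from both counts and covering counting error only. A gene was counted as apart when its scaled count was 25% or more higher in a pool, at 50 or more counts on average. Of 13842 annotated genes at that count, 6.88% were apart towards replicate 1 and 3.86% towards replicate 2. The share depended on count. Towards replicate 1 it was 1.59% of 9380 genes with 500 or more counts on average, and so above 6.88% with fewer counts. In whole tissue, fewer erythroid cells and less RNA per cell cannot be told apart.

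Of 33 members at 50 or more counts on average, 20 were apart towards replicate 1, against 6.88% of all genes. Towards replicate 2 there were 0, against 3.86%. Scaling by the spike-in counts instead moved every ratio by the same amount towards replicate 2 and left 7 members apart towards replicate 1 (Hba-a2, Hbb-bt, Hemgn, Kel, Nfe2, Rhag and Sptb), against 3.08% of all genes, with 12.2% of all genes apart towards replicate 2. At a limit of 1.5-fold 3 members were apart towards replicate 1 with TMM, against 2.02% of all genes. With TMM, 32 of the 33 had a higher scaled count in replicate 1, and 27 with spike-in scaling. The median member was 1.33-fold higher in replicate 1. Among abundant genes such differences were rare with TMM: of 4890 genes with 2000 or more counts on average, 27 (0.552%) were apart towards replicate 1, and 8 of these 27 were members, out of 14 members at that count. At 10000 counts or more, 6 of 710 genes were apart towards replicate 1, namely the globins Hbb-y, Hbb-bh1, Hba-x, Hba-a1 and Hba-a2, and Lars2.

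All 7 globins were apart towards replicate 1 with TMM, against 6.88% of all genes. With spike-in scaling only Hba-a2 and Hbb-bt were, against 3.08%. With TMM, Hbb-y was 1.37-fold higher in replicate 1 (interval 1.36 to 1.39), Hba-x 1.38-fold (1.36 to 1.40) and Hbb-bh1 1.33-fold (1.31 to 1.34). On the log2 scale of replicate 2 over replicate 1 they lay at -8.32, -8.47 and -7.38 spreads, where the spread is that of genes of similar count. Hba-a2, Hba-a1 and Hbb-bt lay at -9.36, -8.77 and -8.46 spreads, and Hbb-bs at -2.30. The adult alpha copies followed at 1.43-fold for Hba-a2 (1.41 to 1.45) and 1.40-fold for Hba-a1 (1.37 to 1.42). Hbb-bt showed the highest ratio of the members, 1.61-fold (1.54 to 1.69). Among the 7 globins its interval met only that of its copy Hbb-bs, which was 1.349-fold higher (1.18 to 1.55). The theta globin Hbq1b, not a member, stood at 1.64-fold (1.21 to 2.30), an interval that held that of Hbb-bt. The sum of both adult beta genes differed 1.55-fold in TPM, against 1.34-fold for the sum of both embryonic beta genes and 1.41-fold for the adult alpha pair.

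The membrane genes had the same median ratio as the globins, 1.38-fold, and 7 of 8 were apart towards replicate 1, against 6.88% of all genes. With spike-in scaling 3 of the 8 were, Sptb, Rhag and Kel, against 3.08% of all genes. With TMM, Slc4a1 was 1.40-fold higher in replicate 1 (1.34 to 1.46), at -8.26 spreads. The others apart lay nearer to genes of similar count. Of these, Rhag, Kel, Rhd and Epb42 had fewer than 500 counts on average, where the share of all genes apart was above 6.88%. Sptb lay at -4.50 spreads, Rhag at -2.57, Kel at -2.27, Ermap at -2.10, Rhd at -2.08 and Epb42 at -1.76. Sptb was 1.52-fold higher (1.37 to 1.68), Rhag 1.47-fold (1.26 to 1.72), Kel 1.40-fold (1.21 to 1.64) and Rhd 1.37-fold (1.19 to 1.58). Ermap and Epb42 lay close to the limit, at 1.27-fold (1.12 to 1.43) and 1.26-fold (1.10 to 1.44). Ank1 was the only membrane gene short of the limit in scaled counts, at 1.09-fold with an interval that included equality (0.935 to 1.28). In TPM the ratio was 1.31-fold for Ank1 and 1.76-fold for Epb42. The estimated lengths of these genes differed between the libraries, 5602 and 6765 bases for Ank1 and 2104 and 2930 for Epb42. Hemgn was 1.43-fold higher (1.30 to 1.58), at -3.84 spreads. Bpgm, at 1.247-fold (1.18 to 1.32), lay just short of the limit and Gfi1b, at 1.253-fold (1.01 to 1.56), just past it.

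The transcription factors and Epor had a median of 1.253-fold, with 4 of 7 apart towards replicate 1, against 6.88% of all genes. Of these 4, Nfe2 alone was apart with spike-in scaling, against 3.08% of all genes. The ratio was 1.59-fold for Nfe2 (1.32 to 1.94), 1.39-fold for Tal1 (1.12 to 1.75), and 1.33-fold for Klf1 (1.19 to 1.482). Gata1 stood at 1.22-fold (1.03 to 1.44). Epor, at 1.16-fold (0.998 to 1.36), and Zfpm1, at 1.07-fold (0.740 to 1.54), had intervals that included equality. These 7 genes rested on 58 to 816 counts in a library, which sets the width of their intervals. All but Klf1 had fewer than 500 counts on average, where the share of all genes apart towards replicate 1 was above 6.88%. The 4 apart lay at -2.62 (Klf1), -2.57 (Nfe2), -1.57 (Tal1) and -1.21 spreads (Gfi1b).

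Of the 9 heme genes 1, Alas2, was apart towards replicate 1, against 6.88% of all genes. With spike-in scaling 0 were, against 3.08%. Alas2 stood at 1.34-fold (1.27 to 1.41), at -5.36 spreads. Its interval overlapped those of all members outside the heme group that had a ratio, except Hba-a2 and Hbb-bt. Within the heme group its lower bound, 1.2661, lay narrowly below the upper bounds of Fech (1.2676) and Uros (1.2684). The other 8 had a median of 1.12-fold, and Zfpm1, Ank1 and Epor, members of other groups, lay within their range. Fech was the nearest, at 1.20-fold (1.14 to 1.27), followed by Uros at 1.17-fold (1.08 to 1.27), Cpox at 1.15-fold (1.07 to 1.24), Slc25a37 at 1.13-fold (1.06 to 1.20) and Urod at 1.11-fold (1.05 to 1.18). Ppox, at 1.07-fold (1.012 to 1.13), was closer to equality. Slc25a38, at 1.04-fold (0.966 to 1.12), and Alad, at 0.987-fold (0.939 to 1.04), had intervals that included it. The intervals of 8 of the 9 heme genes ended below the lower bound of Hbb-y, the exception being Alas2. As background, all enzymes of the pathway other than Alas2 work in every cell that makes heme. Whether this bears on the ratios of the group, which also holds the carriers Slc25a37 and Slc25a38, was not tested.

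**Figure D3:**
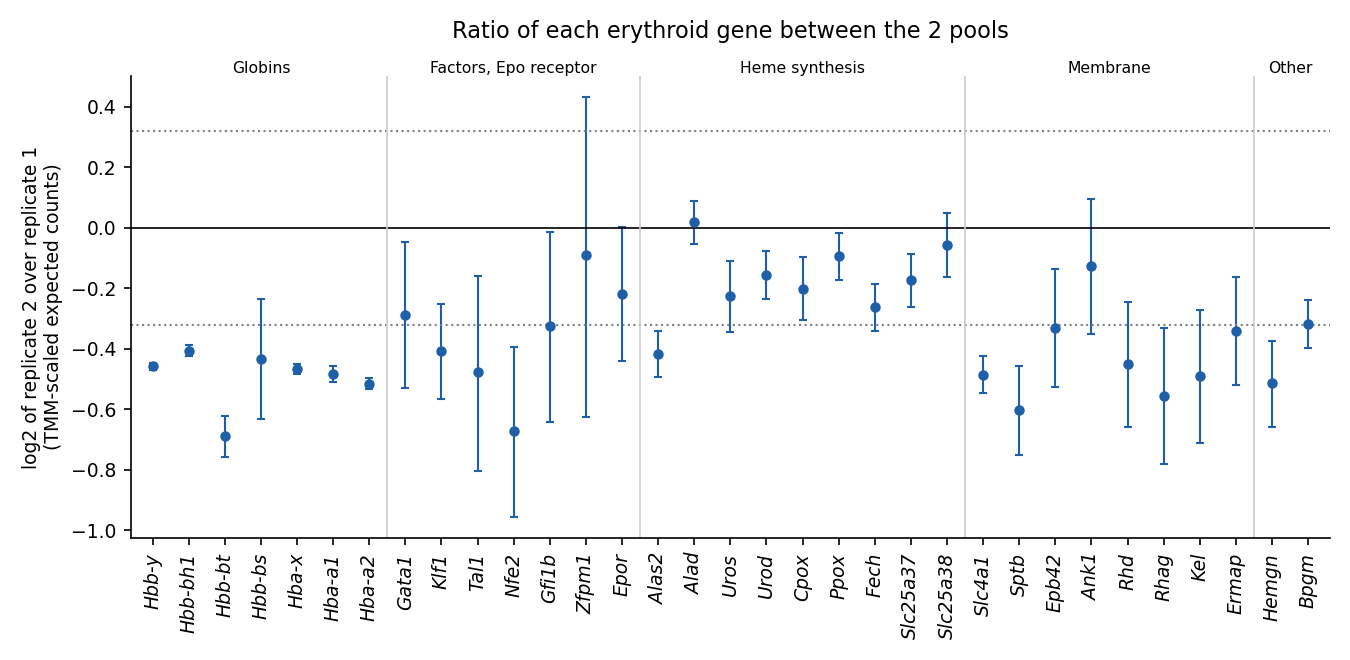
log2 of replicate 2 over replicate 1 for each gene, from TMM-scaled expected counts, with 95% exact binomial intervals (counting error only); the solid line marks equality and the dotted lines a difference of 25%. All 7 globins and 7 of 8 membrane genes lie below the lower dotted line, whereas 8 of 9 heme genes lie above it. Of all genes at 50 or more counts on average, 6.88% lie past that line.

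Other genes expressed by red cells were examined through a wider list of 42. Of 36 at 50 or more counts on average, 15 were apart towards replicate 1 and 0 towards replicate 2, against 6.88% and 3.86% of all genes. The median over 40 genes with a ratio was 1.15-fold. Those apart included the membrane gene Cldn13, at 2.44-fold (1.71 to 3.62). They also included the carbonic anhydrase Car2, at 1.36-fold (1.30 to 1.42), and Trim10, a gene of terminal erythroid differentiation, at 1.61-fold (1.39 to 1.88). Prdx2, Gpx1, Bnip3l and Cd24a, the genes of the list with the highest mean TPM and ones that many other cells also express, had ratios between 0.943- and 1.12-fold. The ratio was 1.07-fold for Prdx2, a peroxidase at 1063 and 1023 TPM, 0.943-fold for Bnip3l, which acts in the clearance of mitochondria and 0.968-fold for the transferrin receptor Tfrc.

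Partners of the erythroid factors and genes of globin switching were closer to equality. Of 18 such genes, all detected, 1 was apart towards replicate 1 and 0 towards replicate 2, against 6.88% and 3.86% of all genes. Their median was 1.06-fold. The gene apart was Runx1, at 1.63-fold (1.29 to 2.09) on 198 and 110 counts. Lmo2 and Ldb1, which bridge Gata1 and Tal1, stood at 1.09-fold (0.988 to 1.21) and 0.953-fold (0.910 to 0.998), and Gata2, the progenitor form of the GATA factors, at 0.861-fold (0.775 to 0.957). Bcl11a, the repressor of embryonic globins in adult cells and also a neural gene, stood at 1.21-fold (1.15 to 1.27). The wider heme list of 21 genes, of which 5 also stand in the wider erythroid list, had a median of 1.02-fold. In it 2 of 18 were apart towards replicate 1, Blvrb and Hebp1, against the same 6.88%.

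Markers of other cells were set beside the members. Over all genes 6.88% were apart towards replicate 1 and 3.86% towards replicate 2. All 12 endothelial genes were detected, their median ratio was 0.963-fold, 0 were apart towards replicate 1 and 2 towards replicate 2 (Erg and Robo4), and their summed level was 229 and 238 TPM. Megakaryocyte and platelet genes (7 of 10 detected) had a median of 1.21-fold, with 2 of 6 apart towards replicate 1 and a summed level of 68.7 and 57.6 TPM, of which Pf4 made up 43.5 and 36.4. Their defining gene Itga2b stood at 1.22-fold (1.04 to 1.44). Macrophage genes (9 of 12 detected) had a median of 1.05-fold and a sum of 61.9 and 58.8 TPM, with 2 of 10 apart towards replicate 1. These 2, C1qc (179 and 118 counts) and Adgre1 (108 and 60), lie under 500 counts, where the share of all genes apart was above 6.88%. The neuroepithelial list, the defining cells of the tissue, had a median of 1.00-fold and a sum of 1795.5 and 1724 TPM, and its only gene apart was Fabp7. Head mesenchyme had a median of 1.02-fold with 1 of 9 apart in each direction and a sum of 505 and 510 TPM, with Tcf21 at 0 in both pools. The part of platelet-lineage genes in the ratios of factors shared with that lineage, such as Gata1, Nfe2 and Gfi1b, was not tested.

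**Figure D4:**
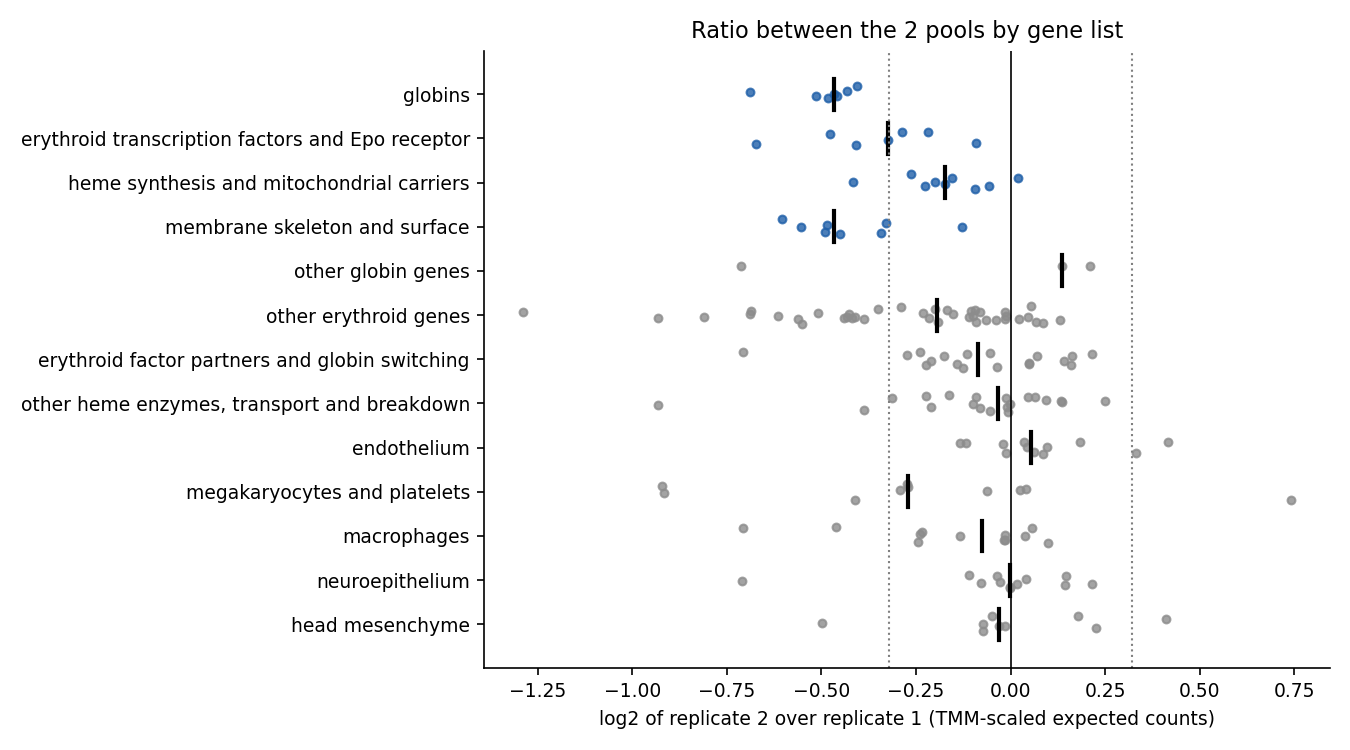
log2 of replicate 2 over replicate 1 for every gene of each list that has 10 or more counts on average (points) and the list's median (vertical bars); the lists of members with more than 2 genes are in blue and the dotted lines mark a difference of 25%. Globins and membrane genes share a median near -0.47, heme genes sit at -0.17, and endothelium, neuroepithelium and head mesenchyme lie around 0.

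The sequence before the starts of the members was searched for words bound by GATA and Klf1-like factors and for the CCAAT box, a general promoter element. RefSeq windows of 250 bases before the start (GRCm38.p6) were held for 28 of the 35 genes, in 31 windows, and the search covered both strands. A GATA sequence (AGATAA or its variant AGATAG, and TGATAA or its variant TGATAG) was found in 18 of 31 windows (58.1%), against 26.5% of all 32851 windows. CCACCC was found in 14 of 31 (45.2%), against 28.1%, and CCAAT in 15 (48.4%), against 33.8%. The longer CCNCACCC, which overlaps CCACCC where N is C, was found in 5 (16.1%), near the 14.9% of all windows. Of 6 globin windows 5 held a GATA sequence, 5 CCACCC and 5 CCAAT, and the window without a GATA sequence was that of Hbb-bt. The windows below show an embryonic beta-like gene, an adult beta-like gene, the most abundant adult alpha gene and the erythroid heme gene. Capitals mark the matches of the GATA words, of CCACCC and of CCNCACCC on either strand, and each window ends at the last base before the gene's GENCODE model, which leaves off 9, 73, 3 and 42 bases of the 250.
Hbb-y promoter, chr7:103853217-103853457, minus strand: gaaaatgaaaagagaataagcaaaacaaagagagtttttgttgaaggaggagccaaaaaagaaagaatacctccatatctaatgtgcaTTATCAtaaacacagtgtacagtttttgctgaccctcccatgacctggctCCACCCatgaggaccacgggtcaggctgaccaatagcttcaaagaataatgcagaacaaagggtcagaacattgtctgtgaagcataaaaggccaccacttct
Hbb-bt promoter, chr7:103813997-103814173, minus strand: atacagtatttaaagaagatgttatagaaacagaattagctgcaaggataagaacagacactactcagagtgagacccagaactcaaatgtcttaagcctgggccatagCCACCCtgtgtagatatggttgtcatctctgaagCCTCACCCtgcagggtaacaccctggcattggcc
Hba-a2 promoter, chr11:32296242-32296488, plus strand: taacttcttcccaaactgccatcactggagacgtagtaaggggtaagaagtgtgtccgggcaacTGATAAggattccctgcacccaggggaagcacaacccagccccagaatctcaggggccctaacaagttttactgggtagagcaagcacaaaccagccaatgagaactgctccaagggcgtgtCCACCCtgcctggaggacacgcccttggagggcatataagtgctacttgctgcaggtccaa
Alas2 promoter, chrX:150547167-150547374, plus strand: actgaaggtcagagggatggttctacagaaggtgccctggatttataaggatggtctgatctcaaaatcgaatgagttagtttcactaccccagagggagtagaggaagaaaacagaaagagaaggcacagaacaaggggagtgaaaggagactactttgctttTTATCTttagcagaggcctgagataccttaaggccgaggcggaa
The 42 bases left off before the RefSeq start of Alas2 hold the 3 CCACCC and 2 overlapping CCNCACCC matches of its window. Counted back from the RefSeq start, the GATA match of Hbb-y begins at -162, that of Hba-a2 at -186 and that of Alas2 at -86. In the stretches shown, Hbb-y, Hbb-bt and Hba-a2 each hold a CCACCC, beginning at -112, -141 and -64, and Hbb-bt also holds CCTCACCC, a form of CCNCACCC, at -107. A match shows only that these letters are present.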

How the data were processed

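Total RNA of pooled forebrain was sequenced as 2 libraries of 1 group. The authors deposited a gene and a transcript table per library, aligned to mm10 with annotation M4, per the notes deposited with the files. The sources used here name no aligner or quantifier. The deposited expected counts are estimated reads, not normalized, the deposited TPM are length-adjusted shares over all 69691 rows, and the deposited transcript tables add each transcript's percent of its gene, per the file headers. The deposited posterior SD and posterior mean TPM are the quantifier's own estimates. Depth was 43021202 and 39215064 expected counts.

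From these, ratios between libraries were computed from the expected count plus 0.5, divided by library sizes scaled by TMM in edgeR 4.0.16 (R 4.3.3), used for scaling only, at a mean count of 10 or more. The spread of ratios was the scaled median absolute deviation within each of 40 bins by mean count. No test was made, since each pool is 1 library. Symbols were matched for 42462 of 43346 identifiers, and coordinates come from GENCODE M21. Data were simulated with the real means for the ratio of replicate 2 to replicate 1 over 13838 genes. The spread beyond counting error was a chosen value, the same for every gene, and the percentages depend on it. The changed genes were drawn only from means above the count limit of a call. The 25% limit was passed by 82% of 100 genes changed 1.35-fold, 100% of 100 changed 3-fold and 2.05% of 13638 unchanged genes. Of the real genes, 6.88% passed it towards replicate 1 and 3.86% towards replicate 2, with TMM scaling. The simulated percentages were not split by count, whereas the real spread (log2) was 0.0551 for Hbb-y and 0.401 for Zfpm1. They therefore do not give the recovery for genes of low count, as among the factors and membrane genes. Alternatives were DESeq2 1.42.0 size factors, total counts, spike-in counts, TPM, other limits and leaving out a library. Python 3.11.15, numpy 2.4.6, pandas 2.3.3, scipy 1.17.1 and matplotlib 3.10.9 did the rest.

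The members and lists were chosen with earlier results of these data known. The text names all 35 members and, from each other list, genes among the 8 of highest TPM, all globins, and up to 5 under 1 TPM; other listed genes, the transcripts under 5% and the CCACCC motif were chosen after their values were seen. Some listed genes are not reported here.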

Additional observations from a re-analysis of the deposited data

How the results depend on the processing

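The medians of the 5 groups of members kept their direction under DESeq2 size factors, total counts, deposited TPM, posterior mean TPM and other count limits. Scaling by spike-in counts moved the median of all genes by 0.17 on the log2 scale towards replicate 2, and with it the medians of globins to -0.30, of membrane genes to -0.30 and of heme genes to -0.0070, from -0.47, -0.47 and -0.17. A scaling moves every gene by the same amount, so it does not change how the members stand to other genes. Under spike-in scaling 27 of 33 members were higher in replicate 1 and 7 were apart, against 3.08% of all genes, with 12.2% apart towards replicate 2. At 1.5-fold 3 members were apart towards replicate 1, with TMM scaling. The number detected was 33 at 0.1 TPM or at 10 counts.

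Counts not divided by length gave Hba-x 42.1% of alpha-like globins, an alpha to beta ratio of 0.735 and a globin share of 0.739%. Each library alone gave 97.7% to 98.0% for the embryonic share of beta-like globins, 32.9% to 33.5% for Hba-x, 0.763 to 0.790 for the alpha to beta ratio and 1.82% to 2.50% for the globin share. No paired analysis was possible because the labels give 1 group. With 1 library per pool, the precision of a ratio beyond counting error is not known.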

Other observations

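Among the 27 abundant genes (2000 or more counts) that were 25% or more higher in replicate 1 with TMM scaling, the following were not members. Fabp7, a fatty acid binding protein of radial glia, had the highest ratio of the 27, 1.64-fold (194 and 120 TPM). The neuronal tubulin Tubb3 was 1.27-fold higher (221 and 175 TPM), the microtubule protein Map2 1.27-fold, the doublecortin-like kinase Dclk1 1.30-fold and Apc2 1.41-fold. Fgf15 and Etv5, both responsive to FGF signalling, were 1.31-fold and 1.34-fold higher. These genes were chosen after their values were seen and stand for no group. The listed neuroepithelial genes had a median of 1.00-fold, with 1 of 12 apart towards replicate 1, against 6.88% of all genes.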
